A study of Homo sapiens with 6 samples.

Results

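The genes described here encode the kinase cascade that runs from RAS through RAF and MEK to ERK, with its scaffold KSR. The gene set held 7 names, and 5 of them (ARAF, KSR1, MAP2K1, MAP2K2 and MAPK3) had a probe set naming exactly 1 gene symbol, out of 18417 genes tested. BRAF and NRAS are not analysed here. The rule for choosing the genes did not use their measured values in this comparison. The genes were nevertheless chosen with earlier results of these data known.

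In this cascade a GTP-bound RAS protein recruits RAF kinases to the membrane, RAF phosphorylates the MEK kinases, and MEK phosphorylates the ERK kinases, which act on targets throughout the cell. KSR proteins resemble RAF and hold RAF, MEK and ERK together. In many melanomas a mutant BRAF drives the cascade without a signal from RAS, and ERK then raises its own inhibitors, so that the pathway restrains itself.

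The RNA came from A375, a line of human melanoma cells that carries BRAFV600E, the form of BRAF that vemurafenib was designed to inhibit. Vehicle cells received 0.1% DMSO and treated cells 10 µM vemurafenib (PLX4032), each for 24 h, and both groups carried the same mutation. Each group held 3 single-colour Affymetrix arrays, from 3 stocks of cells prepared on different days. All results rest on a single cell line and a single dose and time.

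Every level below is a log2 value per probe set after RMA, the standard background correction, normalization and probe summary for these arrays. Every change is vemurafenib minus vehicle on that log2 scale, with its standard error (SE). Probes of different genes bind with different strength, so levels were not compared between genes. A gene is said to rise or fall where its adjusted p from limma, a linear model fitted to all genes, was under 0.05 after Benjamini-Hochberg adjustment.

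With vemurafenib, the cascade transcripts that passed the test did not all move in the same direction, and the MEK genes differed within their own step. MAP2K1, which encodes MEK1, fell 1.59-fold, while MAP2K2, which encodes MEK2, stood 1.18-fold higher. MAPK3, which encodes ERK1, rose 1.41-fold and the scaffold gene KSR1 1.44-fold. ARAF, the RAF family kinase measured here, did not pass the test. In all, 3 of the 5 genes rose and 1 fell, where 23.2% of all genes tested rose and 22.2% fell. In an alternative, the median of the tested genes was set to a common value on every array (centring). MAP2K2 then lost its call and ARAF passed as lower, so that 2 of the 5 genes fell. With this setting 20.0% of all genes rose and 30.6% fell.

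**Figure D1:**
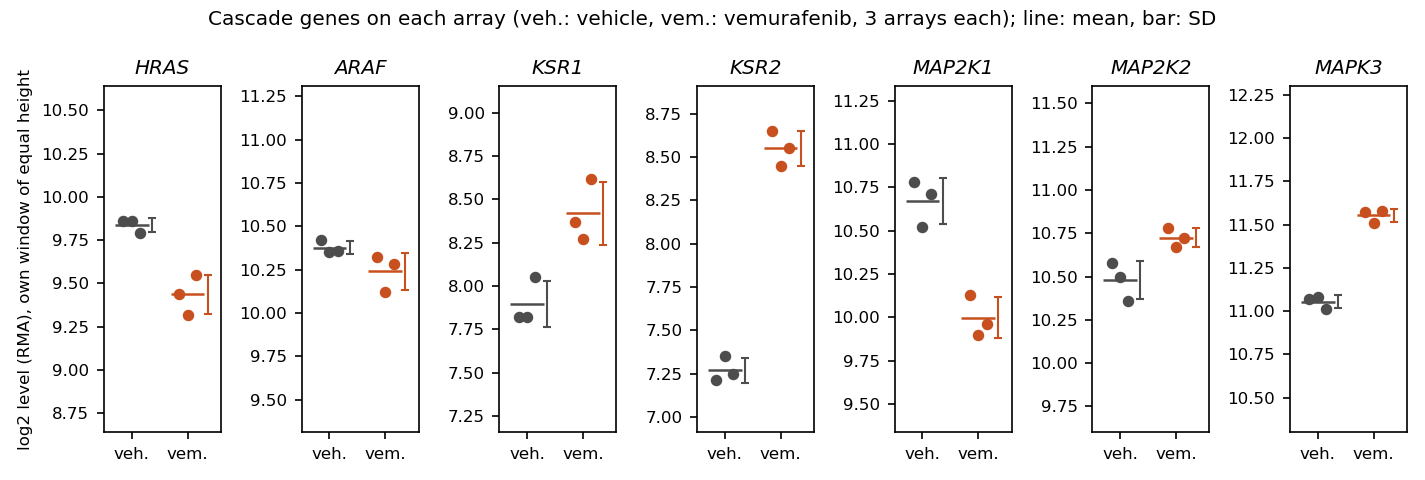
Log2 levels of the 5 cascade genes and of HRAS and KSR2 on each of the 6 arrays, with a line at each group's mean and a bar for its SD; every panel spans the same number of log2 units around its own centre. The MAP2K1 points of the vemurafenib arrays (9.90 to 10.13) lie below all vehicle points (10.52 to 10.78), and those of MAPK3 (11.51 to 11.58) lie above all vehicle points (11.01 to 11.08).

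At the level of MEK, MAP2K1 (probe set 7984319) read 10.78, 10.52 and 10.71 on the vehicle arrays and 10.13, 9.90 and 9.96 on the vemurafenib arrays. The groups did not overlap: the highest treated array lay 0.39 below the lowest vehicle array. The mean went from 10.67 ± 0.14 to 10.00 ± 0.12 (SD, n = 3). This log2 change of -0.67 (SE 0.09, 95% interval -0.87 to -0.47) had a limma adjusted p of 9.06e-05. A larger absolute change was seen for 12.5% of all genes.

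MAP2K2 (probe set 8032761) read 10.58, 10.50 and 10.36 with vehicle and 10.78, 10.67 and 10.72 with vemurafenib. All 3 treated arrays lay above the vehicle arrays, by a margin of 0.09. The change of 0.24 (SE 0.08, 95% interval 0.07 to 0.42; limma adjusted p 0.0254) was smaller than the median absolute change of the genes past the threshold, 0.45. The call was lost without vehicle replicate 3 (0.18, limma adjusted p 0.114), without vemurafenib replicate 1 (0.21, limma adjusted p 0.0958), after centring of the arrays (0.18, limma adjusted p 0.0617) and when every probe set was tested (limma adjusted p 0.055). Over all alternatives its limma adjusted p ran from 0.00928 to 0.114.

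MEK1 and MEK2 are close relatives and both phosphorylate ERK, so the difference between their transcripts was also taken within each array, which removes the array's own offset. MAP2K2 minus MAP2K1 was -0.20, -0.02 and -0.35 with vehicle and 0.65, 0.77 and 0.75 with vemurafenib. The mean log2 ratio went from -0.19 ± 0.17 to 0.72 ± 0.06 (SD, n = 3), a shift of 0.92 or 1.89-fold. The separation of the groups was complete, as it had to be, since each gene alone already separated them, in opposite directions. The exact permutation p was 0.10 (two-sided), the smallest that 3 arrays against 3 can give, and it remained 0.10 after adjustment over the 2 pairs compared. For this pair the p was thus fixed by the single genes and adds no evidence to theirs.

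**Figure D2:**
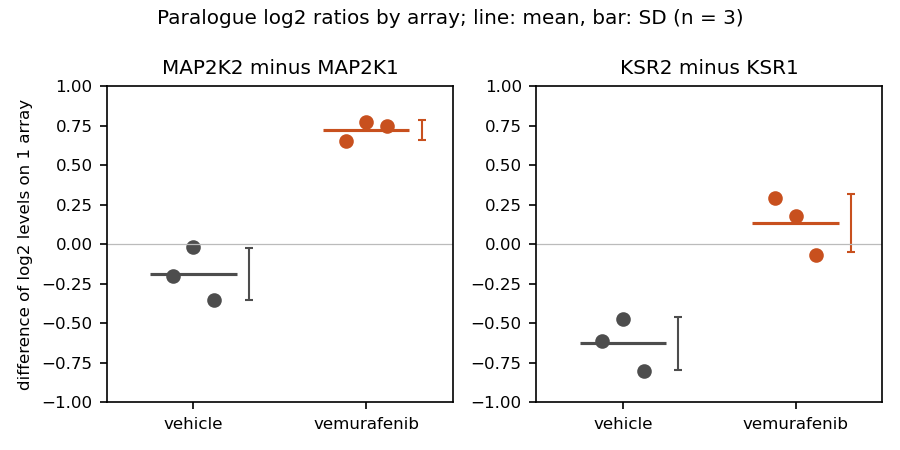
Difference of log2 levels within each array for MAP2K2 minus MAP2K1 and for KSR2 minus KSR1, by group, with lines at the means and bars for the SD over 3 arrays. Because probe sets differ in strength, only the shift between groups can be read, 0.92 for the first pair and 0.76 for the second, and not the sign of a single value.

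The promoters of the MEK pair and of MAPK3 are printed here because these genes moved in different directions. Each runs from 250 bases before to 50 bases after the start site, 5′ to 3′ on the gene's strand, from RefSeq on GRCh38.p14. They lie at chr15:66386662-66386961 on the + strand (MAP2K1), chr19:4124073-4124372 on the - strand (MAP2K2) and chr16:30123171-30123470 on the - strand (MAPK3). Capitals mark matches, on either strand, to the E-box CACGTG, the CRE half-site TGACG, the GC box GGGCGG and the CCAAT box.
MAP2K1: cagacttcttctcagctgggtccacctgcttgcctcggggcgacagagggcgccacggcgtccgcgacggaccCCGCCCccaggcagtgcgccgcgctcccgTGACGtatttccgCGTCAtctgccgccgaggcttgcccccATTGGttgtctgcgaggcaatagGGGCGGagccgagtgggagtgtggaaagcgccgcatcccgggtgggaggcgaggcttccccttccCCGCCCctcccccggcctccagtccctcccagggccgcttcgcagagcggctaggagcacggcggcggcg
MAP2K2: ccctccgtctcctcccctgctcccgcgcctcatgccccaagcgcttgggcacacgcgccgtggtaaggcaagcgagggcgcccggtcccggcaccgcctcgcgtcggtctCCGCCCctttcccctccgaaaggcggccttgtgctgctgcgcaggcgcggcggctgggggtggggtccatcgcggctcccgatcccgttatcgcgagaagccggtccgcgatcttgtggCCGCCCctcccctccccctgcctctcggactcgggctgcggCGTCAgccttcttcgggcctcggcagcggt
MAPK3: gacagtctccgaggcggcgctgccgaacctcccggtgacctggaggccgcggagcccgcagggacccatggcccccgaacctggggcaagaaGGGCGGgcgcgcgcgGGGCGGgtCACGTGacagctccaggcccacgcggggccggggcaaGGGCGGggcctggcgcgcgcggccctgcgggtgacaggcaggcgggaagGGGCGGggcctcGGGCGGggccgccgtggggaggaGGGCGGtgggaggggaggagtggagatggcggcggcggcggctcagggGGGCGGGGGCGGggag

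The MAP2K1 promoter held 2 CRE half-sites, 3 GC boxes and 1 CCAAT box, and that of MAP2K2 held 1 half-site, 2 GC boxes and 0 CCAAT boxes. MAPK3 held 8 GC boxes, none of them overlapping, and 1 E-box, which begins at position -135 from the start site. Of all 35116 promoters of the same length, 7.26% held the E-box, 24.6% the half-site, 45.0% the GC box and 34.6% the CCAAT box. The AP-1 motif TGANTCA and the ETS motif CCGGAAG, which 7.71% and 10.3% of all promoters hold, were also searched, and neither set of letters was in these 3 windows or in those at the start of ARAF and KSR1. GC content was 72.0% for MAP2K1, 73.7% for MAP2K2 and 80.7% for MAPK3, against a median of 58.7% over all promoters. These matches describe letters and were not tested as sites.

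At the level of ERK, MAPK3 (probe set 8000811) read 11.07, 11.08 and 11.01 with vehicle and 11.57, 11.51 and 11.58 with vemurafenib. The arrays of each group lay close together and the groups were separated by 0.44. The mean went from 11.05 ± 0.03 to 11.55 ± 0.04 (SD, n = 3), a change of 0.50 (SE 0.07, 95% interval 0.35 to 0.65) with a limma adjusted p of 9.66e-05. A larger absolute change was seen for 19.7% of all genes. Its SDs were below those of MAP2K1 and KSR1 in both groups.

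At the level of RAF, ARAF (probe set 8167165) read 10.42, 10.35 and 10.36 with vehicle and 10.32, 10.12 and 10.28 with vemurafenib. The treated arrays were lower by a margin of only 0.03, and vemurafenib replicate 2 was the lowest. The change of -0.14 (SE 0.08, 95% interval -0.31 to 0.03; limma adjusted p 0.159) missed the threshold, and its interval allows a fall of up to 0.31. All 5 cascade genes had groups that did not overlap, as did 55.4% of all genes tested. After centring of the arrays ARAF passed as lower (-0.20, limma adjusted p 0.035; range over the alternatives 0.035 to 0.456).

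KSR1 (probe set 8005785), the scaffold that resembles RAF, read 7.82, 7.82 and 8.05 with vehicle and 8.37, 8.27 and 8.62 with vemurafenib. Replicate 3 was the highest array in both groups, and the groups were 0.22 apart. The mean went from 7.89 ± 0.14 to 8.42 ± 0.18 (SD, n = 3), a change of 0.53 (SE 0.10, 95% interval 0.30 to 0.75; limma adjusted p 0.00134). Its levels lay above 6.87, the upper limit of the dimmest 25% of genes.

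Among the nearest relatives of the cascade genes, 2 were measured, KSR2 and HRAS, and they passed the test in opposite directions. KSR2 (probe set 7966810), the second KSR scaffold gene, read 7.21, 7.35 and 7.25 with vehicle and 8.65, 8.45 and 8.55 with vemurafenib. It was 2.44-fold higher (1.28, SE 0.08, limma adjusted p 1.97e-07), and only 3.00% of all genes changed by more in either direction. Within arrays, KSR2 minus KSR1 went from -0.63 ± 0.17 to 0.13 ± 0.18 (SD, n = 3), a shift of 0.76 with complete separation and an exact permutation p of 0.10, again the smallest possible.

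HRAS (probe set 7945436), 1 of the classical RAS genes, read 9.86, 9.86 and 9.79 with vehicle and 9.44, 9.32 and 9.55 with vemurafenib. The groups did not overlap. The change was -0.40 (SE 0.08, 95% interval -0.57 to -0.23), a 1.32-fold fall with a limma adjusted p of 0.00136.

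**Figure D3:**
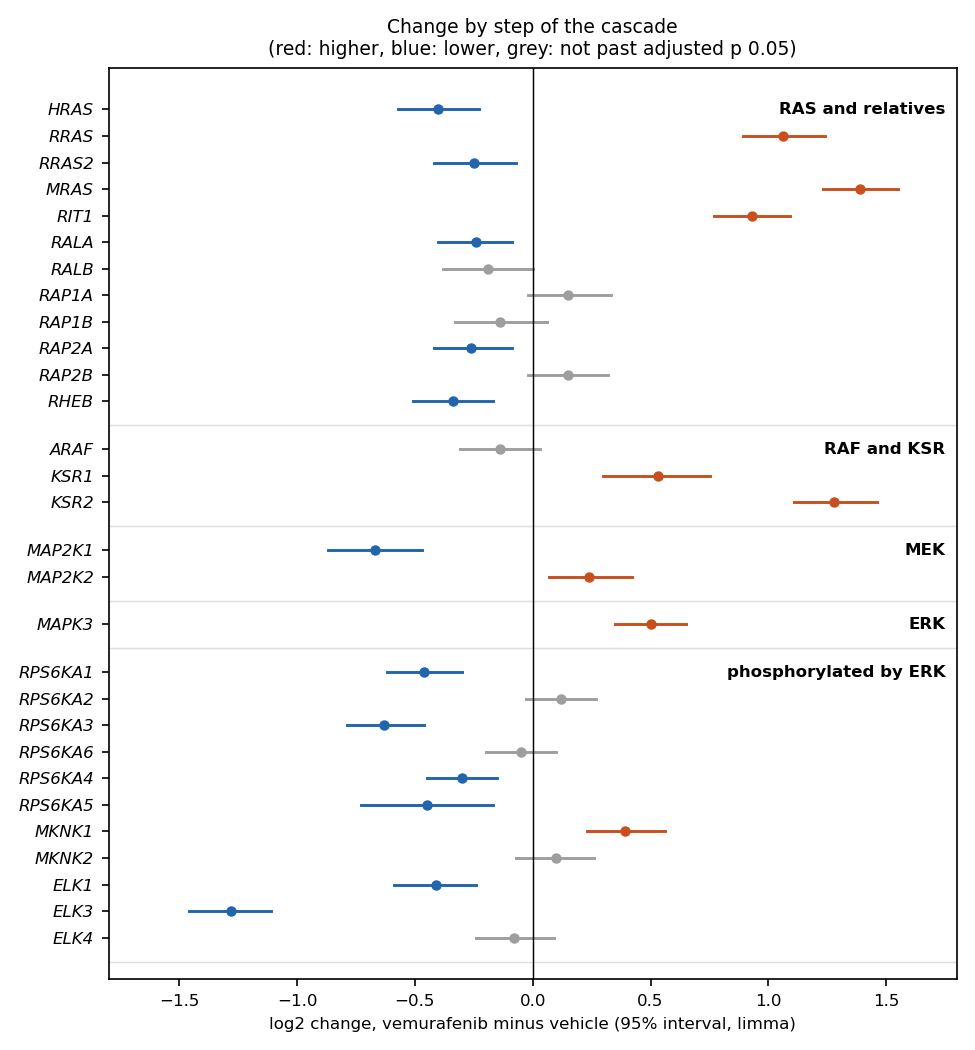
Log2 change of each measured gene with its 95% interval from limma, ordered by step of the cascade from RAS and its relatives to the proteins that ERK phosphorylates; red genes were higher, blue genes lower, and grey genes did not pass an adjusted p of 0.05. KSR1, KSR2, MAP2K2 and MAPK3 lie to the right of 0, HRAS and MAP2K1 to the left, and the interval of ARAF crosses 0.

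Other genes of the pathway were taken from 8 lists by role, with 114 measured genes in all. Of these, 24 rose and 35 fell, which is 51.8% called against 45.5% of all genes tested, and their median change was -0.06 against -0.05 over all genes. The share called in the lists together was near the background. Changes ranged from -1.28 to 2.14.

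**Figure D4:**
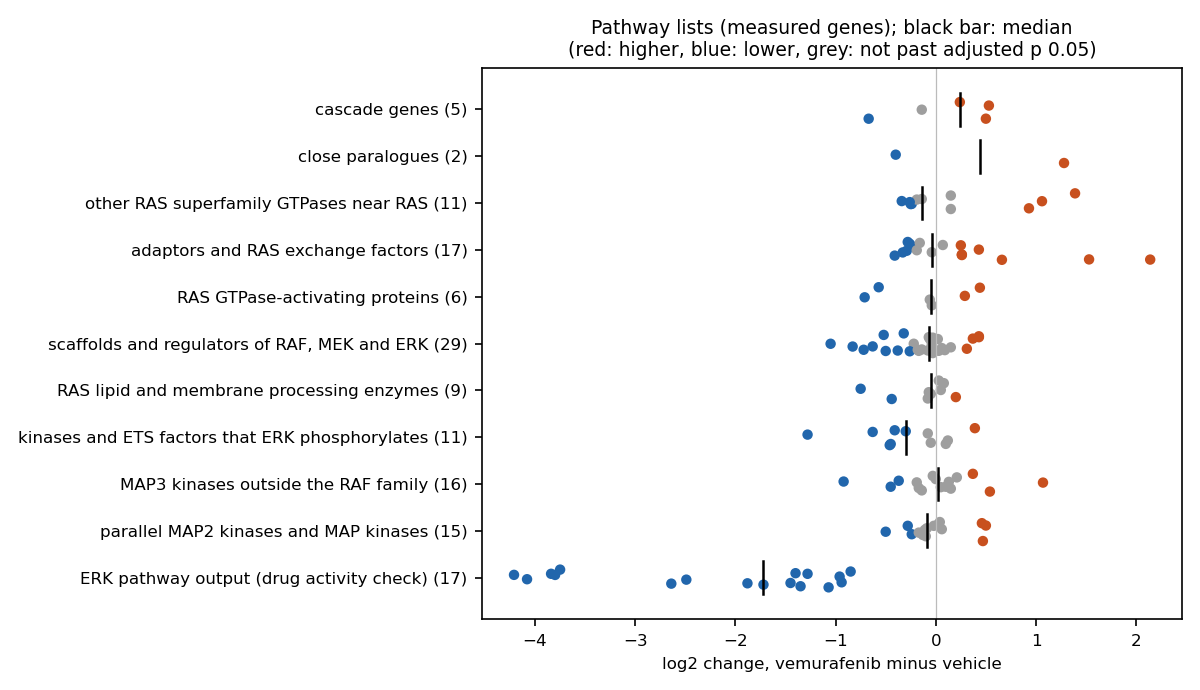
Log2 change of every measured gene in the cascade set, the relatives, the 8 role lists and a list of ERK pathway output; the number of measured genes stands in brackets, a black bar marks the median, and colours are red for higher, blue for lower and grey for genes that did not pass an adjusted p of 0.05. The role lists spread to both sides of 0, with medians from -0.30 to 0.02, whereas all 17 output genes lie between -4.21 and -0.85.

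Upstream of RAS, adaptors link receptors to exchange factors that load RAS with GTP. Of 17 such genes, 7 rose and 6 fell (76.5% called, against 45.5% of all genes), with a median change of -0.04. RASGRP1, an exchange factor that answers to diacylglycerol and calcium, rose from 6.31 ± 0.11 to 8.45 ± 0.02 (SD, n = 3), a change of 2.14 (SE 0.08, limma adjusted p 4.10e-09). Its vehicle level lay in the range of the dimmest 25% of genes, so the fold is limited by background. GAB1, a docking protein for receptor signals, rose by 1.53 (SE 0.07, limma adjusted p 2.84e-08) on its brighter probe set, while a dimmer GAB1 probe set changed by 0.03 (limma adjusted p 0.878 over all probe sets). Among the fallers, RASGRP3 and RASGRP4 lay within the dimmest 25% of genes. RASGRF1 changed by -0.41 on its brighter probe set and by 0.05 on the other (limma adjusted p 0.767 over all probe sets). These fallers were named after their values were seen.

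The exchange factor genes SOS2 and SOS1 rose by 0.66 and 0.43, whereas GRB2, the adaptor that brings SOS to receptors, fell by 0.26 and PTPN11, which encodes the phosphatase SHP2, fell by 0.29, all on the log2 scale. GRB2 and PTPN11 are further members of the list, named after their values were seen. At a threshold of 0.05, GRB2 and the genes of the SOS proteins it binds passed in opposite directions, a contrast picked after the values were seen. The limma adjusted p of GRB2 was 0.0102, which does not pass a threshold of 0.01, and that of PTPN11 was 0.00537. Neither GRB2 nor PTPN11 was followed singly through the other alternatives.

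RAS GTPase-activating proteins switch RAS off. Of 6 measured, 2 fell and 2 rose (66.7% called, against 45.5% of all genes), with a median of -0.05. RASA3 fell from 9.89 ± 0.08 to 9.17 ± 0.04 (SD, n = 3; -0.71, SE 0.07) and RASA2 from 9.32 ± 0.10 to 8.75 ± 0.19 (-0.57, SE 0.10). RASAL2 rose by 0.44, and NF1, the gene of neurofibromin, read 11.41 ± 0.03 without drug and 11.37 ± 0.10 with it (SD, n = 3; limma adjusted p 0.697). The other riser was RASAL1 (0.29, limma adjusted p 0.0451). RASAL1 is the less firm of these, since its groups overlapped. Omitting replicate 1 or 3 of either group ended its call and left 1 riser, with limma adjusted p values of 0.0776 and 0.161 for the vehicle arrays and 0.14 and 0.135 for the vemurafenib arrays.

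Of 11 small GTPases related to RAS, 3 rose and 4 fell (63.6% called, against 45.5% of all genes), with a median of -0.14. The risers were MRAS, which forms a phosphatase complex with SHOC2 that activates RAF, at 1.39 (SE 0.07, 2.62-fold, limma adjusted p 5.24e-08), RRAS at 1.06 (SE 0.08, 2.09-fold, limma adjusted p 7.41e-07) and RIT1 at 0.93 (SE 0.07, limma adjusted p 1.34e-06). MRAS read 8.03 ± 0.07 with vehicle and 9.42 ± 0.05 with vemurafenib (SD, n = 3). Their fitted changes were larger than those of MAP2K1 and MAPK3, while RHEB, which activates mTORC1, fell by 0.34 and its other probe set changed by -0.31. The other fallers, RRAS2, RALA and RAP2A, changed by -0.25, -0.24 and -0.26, and each lost its call when certain single arrays were omitted. RRAS2 lost it without vehicle replicate 2 or 3 or vemurafenib replicate 1 or 2 (limma adjusted p 0.0508 to 0.091) and with every probe set tested (0.0521). RALA lost it without the first vehicle array or the second vemurafenib array (limma adjusted p 0.0577 and 0.0518), and RAP2A without replicate 1 or 3 of the vehicle group (0.0628 and 0.0525). The count of fallers dropped to 2 without vehicle replicate 1, vehicle replicate 3 or vemurafenib replicate 2.

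RAS proteins reach the membrane after lipid modification. Of 9 measured enzymes and carriers of that step, 2 fell and 1 rose, with a median of -0.05. That is 33.3% called, against 45.5% of all genes. ICMT, the methyltransferase that finishes the modified end of RAS, fell by 0.75 (SE 0.09, limma adjusted p 5.28e-05) and LYPLA1, a thioesterase, by 0.44 on the log2 scale. The rise of LYPLA2 (0.20, limma adjusted p 0.0462) was lost without any single array other than vemurafenib replicate 2, with limma adjusted p values from 0.0676 to 0.138. Farnesyltransferase subunit gene FNTA changed by 0.08 (limma adjusted p 0.443).

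Scaffolds and regulators of RAF, MEK and ERK numbered 29, of which 4 rose and 9 fell, with a median of -0.07. The share called was 44.8%, near the 45.5% of all genes. CNKSR2, a scaffold that binds RAF, fell from 8.95 ± 0.15 to 7.90 ± 0.04 (SD, n = 3; -1.05, SE 0.09, limma adjusted p 1.73e-06). YWHAH, a 14-3-3 protein gene, changed by -0.83, IL17RD, an inhibitor of the pathway, by -0.72 and RASSF1 by -0.63. Outside the rule for naming, and picked after their values were seen, LAMTOR3, a MEK1 partner on late endosomes, rose by 0.43 and SHOC2 read 11.02 ± 0.05 without drug and 11.05 ± 0.13 with it (SD, n = 3; limma adjusted p 0.803). SHOC2, the partner of MRAS named above, therefore passed no test here; whether its change differs from that of MRAS was not tested.

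Downstream, 11 genes of kinases and ETS factors that ERK phosphorylates gave 1 riser and 6 fallers, with a median of -0.30. That is 63.6% called, against 45.5% of all genes, and 22.2% of all genes fell. The largest fall was that of ELK3, a ternary complex factor, from 10.89 ± 0.05 to 9.61 ± 0.12 (SD, n = 3; -1.28, SE 0.08, limma adjusted p 2.27e-07). The RSK kinase genes RPS6KA3 and RPS6KA1 changed by -0.63 and -0.46, and ELK1 by -0.41. MKNK1, a kinase of the translation factor eIF4E, rose by 0.39. RPS6KA5 fell by 0.45 (limma adjusted p 0.0134), with groups only 0.02 apart. Its call was lost without vehicle replicate 3 (limma adjusted p 0.0512), with every probe set tested (0.0553) and at a threshold of 0.01.

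Parallel kinases were counted in the same way. Of 16 MAP3 kinases outside the RAF family, 3 rose and 3 fell, with a median of 0.02: MAP3K12 rose by 1.07 (SE 0.08) and MAP3K13 by 0.54, and MAP3K9 changed by -0.92 and MAP3K14 by -0.45. MAP3K8, a kinase that can activate MEK without RAF, read 6.99 ± 0.08 without drug and 7.09 ± 0.11 with it (SD, n = 3; limma adjusted p 0.322) and was picked after its values were seen. Of 15 MAP2 kinases and MAP kinases of the p38, JNK, ERK5 and atypical branches, 3 rose and 3 fell, with a median of -0.09. MAP2K6, a p38 activator, rose by 0.50 and MAP2K5, the activator of ERK5, by 0.47, while MAP2K3, another p38 activator, fell by 0.50. The fallers of this list dropped to 1 without vemurafenib replicate 1. The shares called in these 2 lists were 37.5% and 40.0%, beside 45.5% of all genes.

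Output of the pathway, read from 17 genes that ERK is known to induce, fell in every case, with a median of -1.72. Of all genes tested, 22.2% fell. Among them DUSP6, an ERK phosphatase, changed by -4.21 (SE 0.07), ETV5 by -4.08, ETV4 by -3.84 and SPRY2 by -3.80. The list overlaps genes already known to fall in these data, so its direction is not independent evidence. Against these, the largest change among the 5 cascade genes was the -0.67 of MAP2K1.

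For each of the 4 cascade genes past the threshold, the 3 genes with the most similar profile were found by the root mean square difference of centred log2 values over the 6 arrays. For MAPK3 they were SHKBP1 (0.017), TRPV1 (0.017) and VPS28 (0.022), and for MAP2K2 they were RNF215 (0.023), LGALS1 (0.026) and LRRC27 (0.026). For MAP2K1 they were KRI1 (0.029), KIF5C (0.036) and CCNB2 (0.040), and for KSR1 they were GSTM1 (0.054), ZNF671 (0.063) and PSMB9 (0.063). Such likeness is common: 1235 genes lay within 0.1 of MAP2K2, 910 of MAPK3, 352 of MAP2K1 and 91 of KSR1. With 3 arrays a group, any gene with a similar group difference and little spread scores as alike.

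The label of the cells was checked with marker genes. SOX10, a transcription factor of the melanocyte lineage, stood at 11.48 ± 0.03 with vehicle and 11.78 ± 0.11 with vemurafenib (SD, n = 3), and MITF rose by 0.75. Of 10 lineage genes 5 rose and 0 fell, where 23.2% of all genes tested rose and 22.2% fell. The other risers were GPNMB (1.36), S100B (0.91) and S100A1 (0.79). PAX3 changed by 0.11 (limma adjusted p 0.267). The pigment genes PMEL, TYR, TYRP1 and MLANA did not pass and lay within the dimmest 25% of genes. The summed log2 level of the lineage list was 83.12 to 83.58 on vehicle arrays and 87.20 to 88.63 on vemurafenib arrays.

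Markers of other cell types were mixed. Of 7 fibroblast markers, 3 rose and 0 fell, which is 42.9% called against 45.5% of all genes, of which 23.2% rose. The median change of the list was 0.01, and the summed level was 51.49 to 52.61 with vehicle and 54.66 to 55.95 with vemurafenib. PDGFRB and LUM rose by 1.08 and 1.13, and DCN by 1.46 from a vehicle level of 5.46 that was not above the olfactory receptor median of 5.50, so its fold is limited by background. COL1A1, COL1A2, COL3A1 and THY1 changed by 0.01, -0.15, -0.04 and -0.16 and did not pass.

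Of 7 leukocyte markers, PTPRC, CD3E, CD14, MS4A1 and ITGAM lay within the dimmest 25% of genes, with CD14 lower by limma (-0.32). The bright pair moved in opposite directions: CD68, a lysosomal protein gene, rose from 11.39 ± 0.09 to 12.40 ± 0.07 and LYZ, the lysozyme gene, fell from 10.29 ± 0.06 to 9.54 ± 0.16 (SD, n = 3). The summed level of this list was 50.44 to 51.36 with vehicle and 50.63 to 50.98 with vemurafenib.

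Of 6 endothelial markers, PECAM1, CDH5, VWF and TEK were in the dimmest 25%, and 3 fell: KDR (-0.44), PECAM1 (-0.33) and CLDN5 (-0.23). Only 1 of them passed without vemurafenib replicate 1 or without vemurafenib replicate 2, and 2 without vehicle replicate 2. The fall of PECAM1 was that of its brighter probe set, while a dimmer one changed by -0.01 (limma adjusted p 0.954 over all probe sets). With the mean of its probe sets, PECAM1 changed by -0.17 and lost its call (limma adjusted p 0.133). The sums of the endothelial list were 41.21 to 42.06 with vehicle and 40.00 to 40.81 with vemurafenib. Of 6 keratinocyte markers 0 passed in limma at an adjusted p of 0.05, where 45.5% of all genes did. KRT1, DSG3 and IVL were dim, and KRT14 read 8.68 ± 0.17 with vehicle and 8.95 ± 0.14 with vemurafenib (SD, n = 3; limma adjusted p 0.0501). The sums of the keratinocyte list were 41.89 to 42.85 with vehicle and 41.29 to 42.67 with vemurafenib.

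The part of these markers in the changes of the cascade genes was not tested. In RNA from whole cultures, fewer cells of a kind and less RNA per cell cannot be told apart.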

How the data were processed

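RNA was measured on 3 vehicle and 3 vemurafenib arrays, grouped by their titles; per the labels' protocols, 250 ng of total RNA was biotin-labelled. The authors deposited log2 levels per probe set, and the submitters' processing notes name RMA and Partek without versions. RMA usually gives all arrays the same distribution, so folds can be compressed and a shift of RNA content in every cell cannot be seen. For the genome build and any batch step, the sources used here state nothing. The table held 33297 probe sets with array medians from 7.69 to 7.73 and 0 columns of other samples; with arrays, the number of samples limits the precision.

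Probe sets were named from the platform annotation of 2016 (19460 with 1 symbol, 1754 with several, 12083 with none in that table), and the brightest probe set per gene was kept. Changes were tested with limma 3.58.1 in R 4.3.3 (lmFit, eBayes, group as the only term, two-sided, no filter on dim genes, 7.08 prior degrees of freedom), adjusted over 18417 genes. The code was tested on simulated data. Of 9 paralogue pairs set out, 2 had both genes measured and 7 are not analysed here; they were compared by an exact permutation test.

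Named genes were the cascade genes, measured close relatives, up to 4 genes of each list by size among those called, any gene of lists of 12 or fewer, and the 3 most similar profiles; exceptions are stated. The genes, lists, motifs and tests were chosen with earlier results of these data known. Alternatives covered the replicate number as a block (statmod 1.5.0), centring, renewed quantile normalization, dim-gene filters, probe set choice, the variance model, array weights, the threshold and omission of each array. Figures were drawn with matplotlib 3.10.9.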

Additional observations from a re-analysis of the deposited data

How the results depend on the processing

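MAP2K1, MAPK3 and KSR1 kept direction and call in every alternative that gave a value (17, 17 and 16), with changes of -0.75 to -0.62, 0.44 to 0.56 and 0.43 to 0.60; KSR1 and KSR2 had none where the dimmest 50% of genes were left out. HRAS and KSR2 likewise kept theirs. MAP2K2 lost its call in 5 of 17: after centring (0.18), with every probe set tested (0.24), at a threshold of 0.01 (0.24) and in 2 of the omissions of single arrays, over which its change ran from 0.18 to 0.30. ARAF passed only after centring (-0.20), which gave 2 lower cascade genes in place of 1. Centring lowered the change of every gene by the same amount. The medians of the tested genes were 8.311 to 8.35 on vehicle arrays and 8.367 to 8.401 on vemurafenib arrays. The cause of this difference in medians was not tested. With the replicate number as a fixed block, limma changed no call among the 5 cascade genes (MAP2K2 0.24, adjusted p 0.0395; ARAF -0.14, adjusted p 0.191); in this balanced design the block cannot alter the changes themselves. Deviations of same-numbered arrays correlated at 0.14, -0.18 and -0.25, so the numbers were not taken to pair the arrays; the study did pair cultures by letter, but the labels give that letter for 1 array only. List counts that moved by over 1.5 times ran, over the alternatives, from 1 to 6 (4) for lower RAS relatives, 4 to 7 (7) and 2 to 7 (6) for higher and lower adaptors, 1 to 2 (2) for higher GTPase-activating proteins, 0 to 1 (1) for higher lipid enzymes, 2 to 5 (3) and 1 to 6 (3) for higher and lower MAP3 kinases, 1 to 5 (3) for lower parallel kinases, 0 to 4 (3) for lower endothelial and 1 to 2 (2) for lower leukocyte markers, 0 to 1 (0) for higher and lower keratinocyte, lower melanocyte and lower fibroblast markers, and 0 to 1 (1) for higher close relatives, where KSR2 was filtered out, with the main count in brackets. Of 1559 values of 95 other list genes and relatives under these alternatives, 1493 kept their call, 42 lost it, 24 gained it and 0 changed sign with a call.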
